A study of Mus musculus with 8 samples.

Results

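The 59 genes described here build and control skeletal muscle. They comprise 9 myogenic regulators, 11 actin and myosin genes, 9 troponin and tropomyosin genes, 12 genes of the sarcomere scaffold and its assembly, 7 genes of calcium handling and energy supply, 5 genes of the neuromuscular synapse, and 6 genes of cell fusion, adhesion and the muscle membrane. They were taken from a fixed list by symbol, all 59 matched, and they are 59 of 21887 protein-coding genes on mouse chromosomes 1 to 19, X and Y. For each gene, called APOBEC2 peaks were counted inside the gene, within 1 kb of its start or end, and within 50 kb of its start or end.

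When myoblasts leave the cell cycle, the basic helix-loop-helix factors MyoD, Myf5, myogenin and Myf6 bind E-box sequences together with E proteins and, with MEF2 and homeobox factors, switch on the genes of the contractile apparatus. The products assemble into the sarcomere, in which myosin thick filaments pull on actin thin filaments under the control of troponin and tropomyosin. Calcium released from the sarcoplasmic reticulum starts each contraction. The cells fuse into multinucleated myotubes, and acetylcholine receptors gather at the synapse. APOBEC2 is a member of the AID/APOBEC deaminase family that is found mainly in heart and skeletal muscle.

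Chromatin immunoprecipitation and sequencing (ChIP-seq) was carried out with a polyclonal rabbit antibody against APOBEC2 in C2C12, an established mouse myoblast line, after a change to medium with 2% horse serum, which induces differentiation. Cells labelled 34 h after induction gave 3 immunoprecipitated (IP) libraries and 1 input, and cells labelled 14 h gave 3 IP libraries and 1 input. The titles and sample characteristics give these times, whereas the growth protocol names harvests at 24 h or 34 h, so the earlier time is uncertain. The names of the peak lists of both times carry the tag GFPsh, which the labels do not explain, and whether replicates are separate cultures is not stated. No library made with a control antibody or from cells without APOBEC2 was used here. Peak lists hold no expression values, so neither the levels of muscle markers nor the state of the cells could be checked against the labels.

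The peak lists held 2209, 5025 and 1068 peaks in the 34 h libraries and 768, 1327 and 797 peaks in the 14 h libraries. The median peak summit stood on 19 to 21 fragments at 34 h and on 22 to 24 fragments at 14 h, and the lowest on 10 or 11. The 34 h replicate 2 list stands apart in length, and results that rest on it are named as such. The lists also ended at unequal significance, with a lowest −log10 q of 1.58 to 2.90, and a gene without a peak may carry binding too weak to be called. The part of list length and threshold in differences between the times was not tested, but counts with lists of equal length are given below for both times. With 3 libraries against 3, a permutation test cannot go below p = 0.1, and no test between times was made.

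Few of the muscle genes had a called peak at the gene itself. Within 1 kb of the start or end, 2, 4 and 0 of the 59 genes had a peak in the 34 h libraries (3.39%, 6.78% and 0%), beside 7.54%, 14.1% and 4.07% of all protein-coding genes. In the 14 h libraries the counts were 1, 1 and 0 (1.69%, 1.69% and 0%), beside 3.36%, 5.88% and 3.62% of all genes. The muscle genes lay below all genes in 6 of 6 libraries. The difference averaged −5.18 ± 1.85 percentage points at 34 h and −3.16 ± 1.32 percentage points at 14 h (n = 3 each, SD). With lists of equal length it was −3.15 at 34 h and −2.39 at 14 h. All libraries count the same 59 genes, so their shared order, here and in the other windows, is not 6 independent results. The SD of these differences is over lists of unequal length and does not cover the counting error of 59 genes.

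Called peaks inside the muscle genes showed the same order. The 34 h libraries had such a peak in 3, 7 and 0 genes (5.08%, 11.9% and 0%), beside 7.68%, 16.1% and 3.66% of all genes. Each of the 14 h libraries had 1 gene (1.69%), beside 3.03%, 5.41% and 3.14% of all genes. The share among muscle genes was again lower in 6 of 6 libraries, with a mean difference of −3.50 ± 0.836 percentage points at 34 h and −2.17 ± 1.34 at 14 h (n = 3 each, SD). Counted by summit position alone, the difference was −0.392 at 34 h and −0.902 at 14 h. Gene length was alike in both sets, with a median of 17.2 kb among the muscle genes and 17.2 kb among all genes. Of 7 muscle genes longer than 100 kb, 1 at 34 h and 0 at 14 h had a peak inside in at least 2 libraries, where 11.6% and 2.63% of all genes of that length did so.

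In the wider window the muscle genes had the higher share, by a margin that changed sign under some settings. Within 50 kb, 17, 28 and 10 muscle genes had a peak in the 34 h libraries (28.8%, 47.5% and 16.9%), beside 22.2%, 38.8% and 12.5% of all genes. The 14 h libraries gave 7, 12 and 7 genes (11.9%, 20.3% and 11.9%), beside 10.1%, 16.7% and 10.8%. The muscle genes lay above all genes in 6 of 6 libraries, by 6.56 ± 2.13 percentage points at 34 h and 2.17 ± 1.31 at 14 h (n = 3 each, SD). At 34 h this difference was −1.89 percentage points within 20 kb and 1.17 with lists of equal length, against 1.01 and 2.48 at 14 h. Without genes that have a close neighbour it was 5.42 at 34 h and −0.865 at 14 h. For genes with a peak in at least 2 libraries of a time, the exact intervals given below contained the all-gene share in each window.

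**Figure D1:**
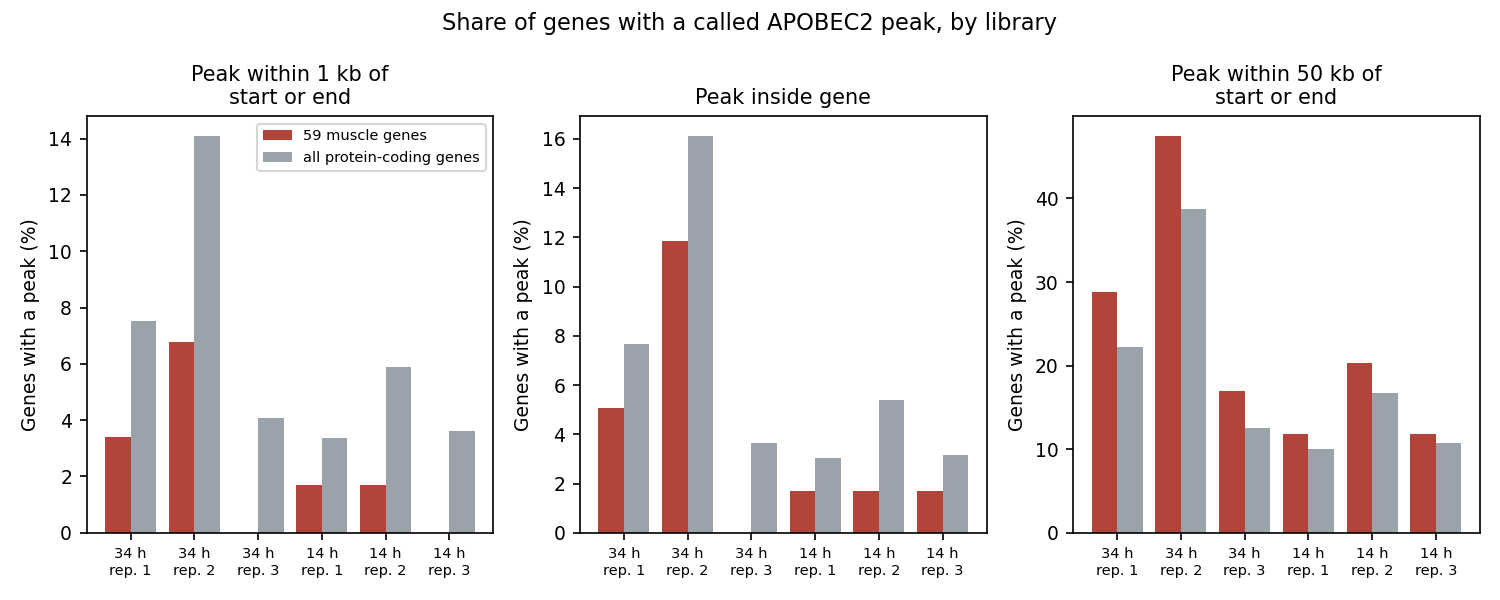
Percent of the 59 muscle genes (red) and of all 21887 protein-coding genes (grey) with a called peak in each IP library, within 1 kb of the start or end, inside the gene, and within 50 kb. The red bar is below the grey bar in all 6 libraries in the first 2 panels and above it in all 6 libraries in the last.

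Requiring a peak in 2 or more of a time's 3 libraries left short lists. Within 1 kb there were 2 genes at 34 h, Chrnb1 and Myom1, beside 7.36% of all genes, and 1 gene at 14 h, Myom1, beside 3.87%. Inside the gene there were 3 at 34 h, Chrnb1, Myom1 and Myom2, beside 7.40% of all genes, and 1 at 14 h, Plec, beside 3.42%. The counts within 50 kb were 17 at 34 h (28.8%), beside 22.5% of all genes, and 9 at 14 h (15.3%), beside 11.7%. Exact 95% binomial intervals for these shares, which cover counting error only, reached from 0.413% to 11.7% for 2 genes, from 0.0429% to 9.09% for 1 gene, from 1.06% to 14.1% for 3 genes, from 17.8% to 42.1% for 17 genes and from 7.22% to 27.0% for 9 genes. Each interval contained the share of all genes. With lists limited to 765 peaks each, the 34 h counts were 0 within 1 kb, 0 inside and 6 within 50 kb. The 14 h counts stayed at 1, 1 and 9, so the 34 h counts were then the lower ones.

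By the strict rule of a peak in every library of 1 time and in none of the other, few genes stood apart. No muscle gene had a peak within 1 kb in each of the 3 libraries at 34 h without any at 14 h (0.781% of all genes), and none had the reverse (0.0137%). Inside the gene no member had a peak in all 3 libraries of 34 h alone (0.736% of all genes), and 1, Plec, had one in all 3 libraries of 14 h alone (0.0366%). Within 50 kb, Ckm and Tnnt3 had peaks in each of the 3 libraries at 34 h without any at 14 h (2.43% of all genes), and Plec had the reverse (0.0822%). Because the genes were chosen with earlier results of these data known, the low all-gene shares beside Plec are no test of it.

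Counting any of the 6 libraries, 4 muscle genes had a peak within 1 kb (15.8% of all genes), 8 had one inside (18.0%) and 31, or 52.5%, had one within 50 kb (41.7%). Of the 31, 11 had peaks in 34 h replicate 2 and no other library (13.5% of all genes). The peaks within 1 kb of Chrna1 and Mylpf and those inside Myl4, Mylpf, Neb and Pax7 also came from that library alone. Either inside or within 1 kb there were 9 genes (20.2% of all genes) in any library and 4 in at least 2 libraries of a time, namely Chrnb1, Myom1, Myom2 and Plec (9.78%). These 9 genes carried 20 peaks in 12 regions. Their fold enrichment over local background, the peak caller's own value in the authors' lists, ran from 4.03 to 8.64 with a median of 6.05, on 15 to 26 fragments. A fold also depends on the depth of its library and input, so folds of the 2 times set side by side here are descriptions without a test. Median folds of the whole lists were 5.91, 5.70 and 6.03 at 34 h and 8.11, 7.99 and 8.47 at 14 h. The median of the 20 peaks stood above 47.8% of the peaks of its own list, so as a set they sat near the middle of their lists.

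**Figure D2:**
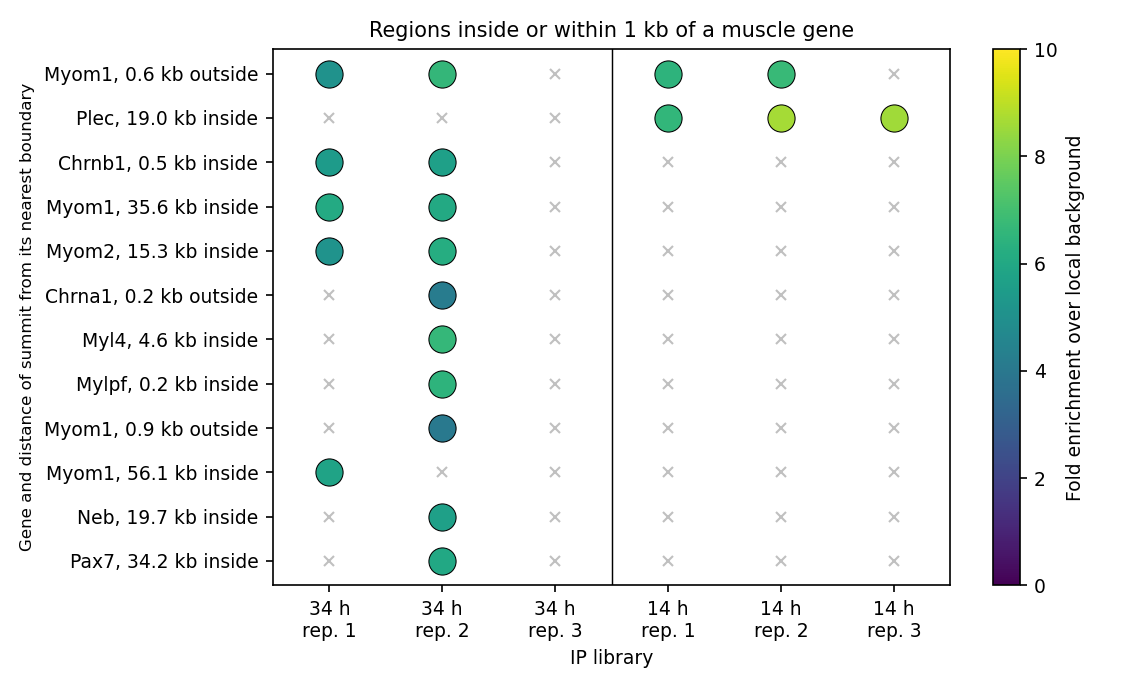
Fold enrichment (colour) of the 12 regions inside or within 1 kb of a muscle gene in each of the 6 IP libraries, with a cross where no peak was called. No region has a peak in 34 h replicate 3, and Plec alone has one in all 3 libraries of 14 h.

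To let a reader compare a muscle promoter that has a peak with those that have none, the 250 bases before the start of 4 genes follow, from RefSeq on GRCm38.p6, which shares its primary assembly with mm10. Chrna1 encodes the acetylcholine receptor alpha subunit, and its promoter carried the peak of 34 h replicate 2 (chr2:73580339-73580588, minus strand). Myog encodes myogenin and had no peak near it (chr1:134289754-134290003, plus strand). Tnnc2 encodes fast skeletal troponin C and had no peak at its own promoter (chr2:164779735-164779984, minus strand), whereas its neighbour Ube2c, a ubiquitin-conjugating enzyme of the anaphase-promoting complex, had a peak in all 6 libraries (chr2:164769679-164769928, plus strand). Capitals mark E-boxes, CANNTG, in the first 3 sequences. In Ube2c they mark CCAAT and TTTGAA elements or their reverse complements, ATTGG and TTCAAA.
Chrna1: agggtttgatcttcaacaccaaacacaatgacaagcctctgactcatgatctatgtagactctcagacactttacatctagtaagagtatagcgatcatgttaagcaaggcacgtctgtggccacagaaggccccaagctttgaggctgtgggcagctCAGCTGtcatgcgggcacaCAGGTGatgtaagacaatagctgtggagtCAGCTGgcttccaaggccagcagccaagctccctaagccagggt
Myog: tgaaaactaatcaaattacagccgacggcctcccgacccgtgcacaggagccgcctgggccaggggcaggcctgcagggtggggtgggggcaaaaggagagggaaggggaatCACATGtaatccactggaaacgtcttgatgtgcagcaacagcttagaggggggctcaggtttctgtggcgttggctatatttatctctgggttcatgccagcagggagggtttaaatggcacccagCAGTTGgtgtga
Tnnc2: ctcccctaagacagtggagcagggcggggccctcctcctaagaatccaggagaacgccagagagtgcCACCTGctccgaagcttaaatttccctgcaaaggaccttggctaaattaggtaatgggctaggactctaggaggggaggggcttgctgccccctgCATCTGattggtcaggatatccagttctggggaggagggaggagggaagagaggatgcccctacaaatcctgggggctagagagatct
Ube2c: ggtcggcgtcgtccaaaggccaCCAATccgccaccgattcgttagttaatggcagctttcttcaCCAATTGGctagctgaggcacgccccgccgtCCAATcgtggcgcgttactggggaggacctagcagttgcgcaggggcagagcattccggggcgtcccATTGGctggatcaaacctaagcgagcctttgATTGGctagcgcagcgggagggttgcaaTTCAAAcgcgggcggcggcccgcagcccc

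The Chrna1 stretch held 3 marked E-boxes, 2 of them CAGCTG, the Myog stretch held 2 and the Tnnc2 stretch held 2. The Ube2c stretch held 6 CCAAT elements and 1 TTTGAA element, and it also held 2 CANNTG matches, which are not marked as such. RefSeq promoter windows of 300 bases, from 250 before to 50 after a start, were given for 47 of the 59 genes, 55 windows in all. CANNTG, read on both strands, was in 40 of these windows (72.7%), beside 69.0% of 21263 windows of all genes. CAGCTG, which is contained in CANNTG, was in 19 (34.5%), beside 15.6%. GGGCGG was in 17 (30.9%), beside 46.2%, TTTGAA in 7 (12.7%), beside 16.0%, and CCAAT in 19 (34.5%), beside 38.2%. A match is a description of the letters and not of binding.

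The muscle promoter windows were nearly free of called peaks. No member had a peak on its window in at least 2 libraries at 34 h or at 14 h, beside 6.87% of genes with a window at 34 h and 3.45% at 14 h. In any library there were 2 members at 34 h, Chrna1 and Myl4, beside 14.4% of genes, and 0 members at 14 h, beside 5.60%. Both peaks came from 34 h replicate 2.

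Of the myogenic regulators, Pax7 alone had a peak inside the gene, and no regulator had a peak within 1 kb in any library. Pax7, the paired-box factor of satellite cells, had a single peak 34.2 kb inside the gene in 34 h replicate 2, with a fold of 6.00. The determination factor Myod1 lay 34.8 kb from its nearest peak, which was in 34 h replicate 2 with a fold of 5.40. For Myog, the myogenin gene, the nearest peak of any library was 190 kb away.

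Myf5 and Myf6, adjacent determination and differentiation factors, lay 2417 kb and 2409 kb from any peak. Of the MEF2 genes, which encode MADS-box partners of the myogenic factors, Mef2d was 3.38 kb, Mef2a 8.70 kb and Mef2c 64.0 kb from the nearest. The Mef2d regions, 3.50 and 6.01 kb away, had folds of 4.44 and 5.64, and the Mef2a region had 4.68, each in 34 h replicate 2 alone. Six4, a homeobox gene, was the only regulator with a region within 50 kb in at least 2 libraries of a time. That region lay 33.4 kb away inside Mnat1, a gene of the CDK-activating kinase, with folds of 5.11 and 5.92 in replicates 1 and 2 of 34 h and no peak in the other 34 h library or at 14 h.

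Among the actin and myosin genes, Mylpf and Myl4 had peaks of their own in 34 h replicate 2 only. Mylpf, the fast skeletal regulatory light chain gene, had a peak with a fold of 6.46 and a summit 202 bp inside the gene, with the boundary of Tbc1d10b 582 bp away. Myl4, the embryonic and atrial light chain gene, had a peak with a fold of 6.65 and a summit 4.61 kb inside the gene. It lay on a Myl4 promoter window and 4 bp from the boundary of Cdc27, an anaphase-promoting complex gene, so the peak cannot be assigned to Myl4 alone. The sarcomeric myosin heavy chain genes Myh1, Myh2, Myh3, Myh4 and Myh8, which lie together on chromosome 11, were 588 to 795 kb from any peak, and neither Actc1, the cardiac actin gene, nor Myl1 had a peak within 50 kb. The heavy chain genes are related in sequence, and how reads that map to several places were treated is not given in the sources used here.

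Regions in all 6 libraries lay within 50 kb of 4 muscle genes, Acta1, Mylpf, Tnnc2 and Tpm2, beside 6.37% of all genes, and each was closer to another gene. Acta1, the skeletal alpha-actin gene, had its region 32.3 kb away (chromosome 8, 123859301 to 123859684), 754 bp from the boundary of Ccsap, a centriole and spindle protein gene. Its folds were 10.4, 11.8 and 12.3 at 34 h and 9.46, 15.0 and 13.3 at 14 h. The folds of the times overlapped, with means of 11.5 ± 0.965 at 34 h and 12.6 ± 2.84 at 14 h (n = 3 each, SD). Within its own list, the peak had a higher fold than 91.2%, 94.5% and 94.2% of peaks at 34 h. At 14 h these shares were lower, at 61.5%, 78.8% and 75.7%.

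Mylpf had such a region 12.7 kb away and 92 bp from Cd2bp2, a splicing factor gene (chromosome 7, 127195955 to 127196310). The folds were 7.66, 10.0 and 9.27 at 34 h and 6.68, 7.24 and 6.84 at 14 h, with every 34 h library above every 14 h library. The shares of peaks with a lower fold in the same list had this order too. They were 79.0%, 91.6% and 86.1% at 34 h and 30.9%, 42.8% and 29.4% at 14 h. A further region of Mylpf, 46.5 kb away and 135 bp from Dctpp1, a nucleotide pyrophosphatase gene, had folds of 6.78, 11.0 and 5.84 at 34 h and no peak at 14 h. Myh7, the slow and cardiac myosin heavy chain gene, had a region 20.7 kb away, 117 bp from Ngdn, with folds of 5.19 and 8.38 in replicates 1 and 2 of 34 h only.

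No troponin or tropomyosin gene had a peak of its own in any library. The highest folds near any muscle gene were 7.26 kb from Tnnc2, at the start of Ube2c (chromosome 2, 164769677 to 164770132). They were 11.3, 15.1 and 9.80 at 34 h and 18.7, 20.2 and 17.2 at 14 h. Every 34 h library was below every 14 h library, with means of 12.1 ± 2.75 at 34 h and 18.7 ± 1.52 at 14 h (n = 3 each, SD). The summits stood on 36, 54 and 33 fragments at 34 h and on 41, 48 and 39 at 14 h. Within its own list, the Ube2c peak had a higher fold than 93.0%, 97.4% and 88.0% of peaks at 34 h. At 14 h these shares were 90.2%, 86.7% and 85.9%, so the order seen in the folds was not seen in the standing within lists.

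Tpm2, the beta-tropomyosin gene, lay 14.1 kb from a region inside Arhgef39 (chromosome 4, 43499330 to 43499809). Its folds were 7.54, 8.87 and 6.46 at 34 h and 7.07, 14.4 and 10.7 at 14 h, and the times overlapped. So did the shares of its lists with a lower fold, at 77.8%, 88.2% and 61.0% for 34 h and 36.6%, 77.8% and 65.7% for 14 h. Tpm2 also had a region 39.1 kb away, 8 bp from Creb3, with folds of 5.69 and 5.03 in replicates 1 and 2 of 34 h only. Tnnt3, fast skeletal troponin T, had a region 35.0 kb away in the noncoding gene Nctc1 (chromosome 7, 142550839 to 142551375). The boundary of the protein-coding gene Mrpl23 was nearer, at 10464 bp. The folds were 6.10, 11.0 and 6.72 at 34 h, with no peak at 14 h. The other troponin genes and Tpm1 had no peak within 50 kb.

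**Figure D3:**
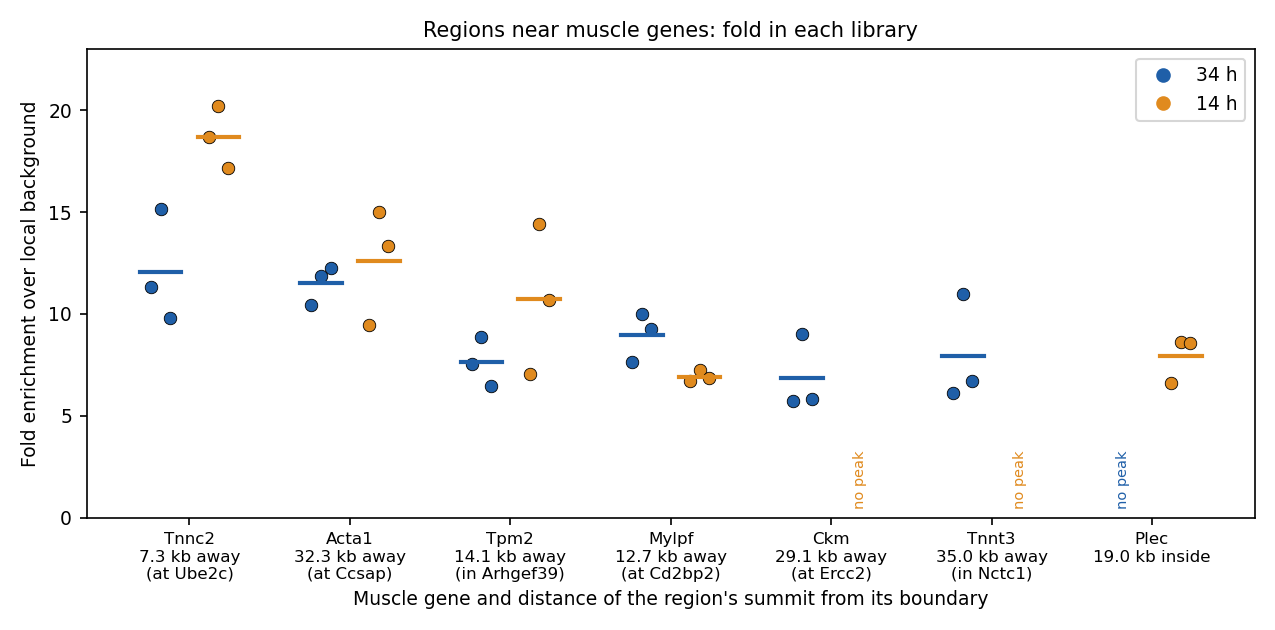
Fold enrichment over local background in each IP library (points) and its mean over the libraries of a time (lines) for 7 regions near or inside muscle genes, 34 h in blue and 14 h in orange. Tnnc2 carries the highest values, Ckm and Tnnt3 have no peak at 14 h, and Plec has no peak at 34 h.

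In the scaffold and assembly group, Plec, Myom1 and Myom2 had regions of their own in at least 2 libraries of a time. Plec encodes plectin, a linker of intermediate filaments, and is expressed far beyond muscle. Its region lay 18987 bp inside the gene (chromosome 15, 76189849 to 76190085) with folds of 6.60, 8.64 and 8.56 at 14 h and no peak in any 34 h library. The 14 h summits stood on 16, 23 and 21 fragments and within 14 bp of each other, and the nearest boundary of another gene, Parp10, was 43034 bp away. Of the peaks in the same lists, 29.6%, 55.0% and 50.9% had a lower fold.

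Myom1 encodes myomesin, which cross-links thick filaments at the M-band. Its region shared by both times lay 638 bp outside the gene (chromosome 17, 71002578 to 71002832), with folds of 5.09 and 6.60 in replicates 1 and 2 of 34 h and 6.48 and 6.74 in replicates 1 and 2 of 14 h. Neither replicate 3 had a peak there, and the times overlapped. The boundary of Myl12a, a nonmuscle myosin light chain gene, was 160 bp from the summit, and the region lay on a Myl12a promoter window. Within the gene, 35.6 kb from its boundary, Myom1 had folds of 6.06 and 6.03 in replicates 1 and 2 of 34 h and no peak at 14 h. The other regions inside or within 1 kb of Myom1 came from 1 library each. A region inside the gene had a fold of 5.80 in 34 h replicate 1. Another, 948 bp outside Myom1 and with its summit inside Myl12a, had a fold of 4.03 in 34 h replicate 2.

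Myom2, the M-protein gene, had a region 15.3 kb inside (chromosome 8, 15072857 to 15073240) with folds of 5.14 and 6.17 in replicates 1 and 2 of 34 h and no peak in the other 4 libraries. Neb, which encodes nebulin of the thin filament, had 1 peak, 19.7 kb inside, with a fold of 5.64 in 34 h replicate 2. Klhl41, a kelch protein of sarcomere assembly, had a region 38.7 kb away, 141 bp from Ppig, with folds of 4.54 and 4.53 in replicates 1 and 2 of 34 h and 6.87 in replicate 2 of 14 h. Ttn, Ldb3, Myoz1 and Smyd1 had a peak within 50 kb in 34 h replicate 2 alone, and Des had one in 34 h replicate 1 alone. Mybph and Unc45b had none.

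No calcium or energy gene had a peak of its own, and 4 of 7 had one within 50 kb in at least 2 libraries of 34 h and 2 of 7 at 14 h, beside 22.5% and 11.7% of all genes. Ckm, the muscle creatine kinase gene, lay 29.1 kb from a region whose summit was 41 bp from Ercc2, a DNA repair helicase gene (chromosome 7, 19381845 to 19382071). Its folds were 5.73, 9.0 and 5.82 at 34 h, and no 14 h library had a peak. Ryr1, the calcium release channel gene, had a region 21.3 kb away and 9 bp from Map4k1, with folds of 9.0 and 8.23 in replicates 1 and 2 of 34 h and 7.88 and 12.8 in replicates 1 and 2 of 14 h.

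Atp2a1, the sarcoplasmic reticulum calcium pump gene, had a region 49.0 kb away, 94 bp from Nfatc2ip. Its folds were 5.85, 6.90 and 5.36 at 34 h and 7.70 and 5.73 in replicates 2 and 3 of 14 h. Casq1, which encodes the calcium store protein calsequestrin, had a region 22.7 kb away inside Atp1a4, with folds of 5.20 and 4.74 in replicates 1 and 2 of 34 h only. The times overlapped for Ryr1 and Atp2a1, and Casq1 had no 14 h value to set beside its own.

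Of the synapse genes, Chrnb1, the acetylcholine receptor beta subunit, had a region 517 bp inside its start (chromosome 11, 69795291 to 69795527). Its folds were 5.46 and 5.64 in replicates 1 and 2 of 34 h, on 16 and 19 fragments, and it had no peak in the other 4 libraries. The boundary of Fgf11 was 619 bp away. A further region 25.3 kb from Chrnb1 and 75 bp from Polr2a, the largest subunit of RNA polymerase II, had folds of 7.06, 8.39 and 5.30 at 34 h and 6.46 in replicate 2 of 14 h. Another region, 42.5 kb away and 94 bp from Tmem256, had folds of 4.21 and 5.11 in replicates 1 and 2 of 34 h.

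The Chrna1 peak shown above had a fold of 4.15 on 22 fragments in 34 h replicate 2, and 7.58% of the peaks of that list had a lower fold. It was 167 bp outside the gene, and the nearest other gene, Chn1, was 30155 bp away. Musk, the receptor kinase that organises the synapse, had a region 24.5 kb away with folds of 9.14 and 6.38 in replicates 2 and 3 of 34 h. Among the 9 genes with a peak of their own, Chrna1 is the case in which a peak lay on the promoter with no other gene nearby, and it rests on 1 library.

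In the fusion and membrane group, Mymx, the fusion peptide myomixer, alone had peaks within 50 kb. Its nearest region, 5.40 kb away in Slc29a1, a nucleoside transporter gene, had a fold of 5.62 in replicate 1 of 34 h and 10.9 and 5.86 in replicates 2 and 3 of 14 h. Another, 14.1 kb away and 13909 bp from the boundary of Capn11, had folds of 5.20 and 5.19 in replicates 2 and 3 of 34 h and no peak at 14 h. Dmd, the dystrophin gene, is the longest of all protein-coding genes in the table at 2390 kb, and it held no peak in any library.

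Across all groups, 28 of the 59 muscle genes (47.5%) had no peak inside or within 50 kb in any of the 6 libraries, beside 57.7% of all genes. They include Myf5, Myf6, Myog and Mef2c among the regulators, 5 of the fast and developmental myosin heavy chain genes, and Mymk, Cdh15, Cav3, Dmd and Sgca of the fusion and membrane group. The exact 95% interval of this share ran from 34.3% to 60.9% and contained the all-gene share. A further 11 genes had their peaks in 34 h replicate 2 and no other library, beside 13.5% of all genes, and these included Myod1, Ttn, Neb and Pax7.

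The nearest peak of any library was at a median distance of 38.2 kb for the muscle genes and 77.6 kb for all genes. With all 34 h peaks the medians were 50.8 kb and 84.2 kb, and with all 14 h peaks they were 386 kb and 375 kb. By library, the muscle genes stood nearer in 34 h replicate 2, with 53.7 kb against 90.2 kb for all genes. In the other 34 h libraries the medians were 224 kb against 235 kb and 563 kb against 566 kb. At 14 h the muscle genes stood farther in replicates 1 and 3, with 869 kb against 803 kb and 869 kb against 747 kb. Replicate 2 of 14 h gave 403 kb against 412 kb.

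**Figure D4:**
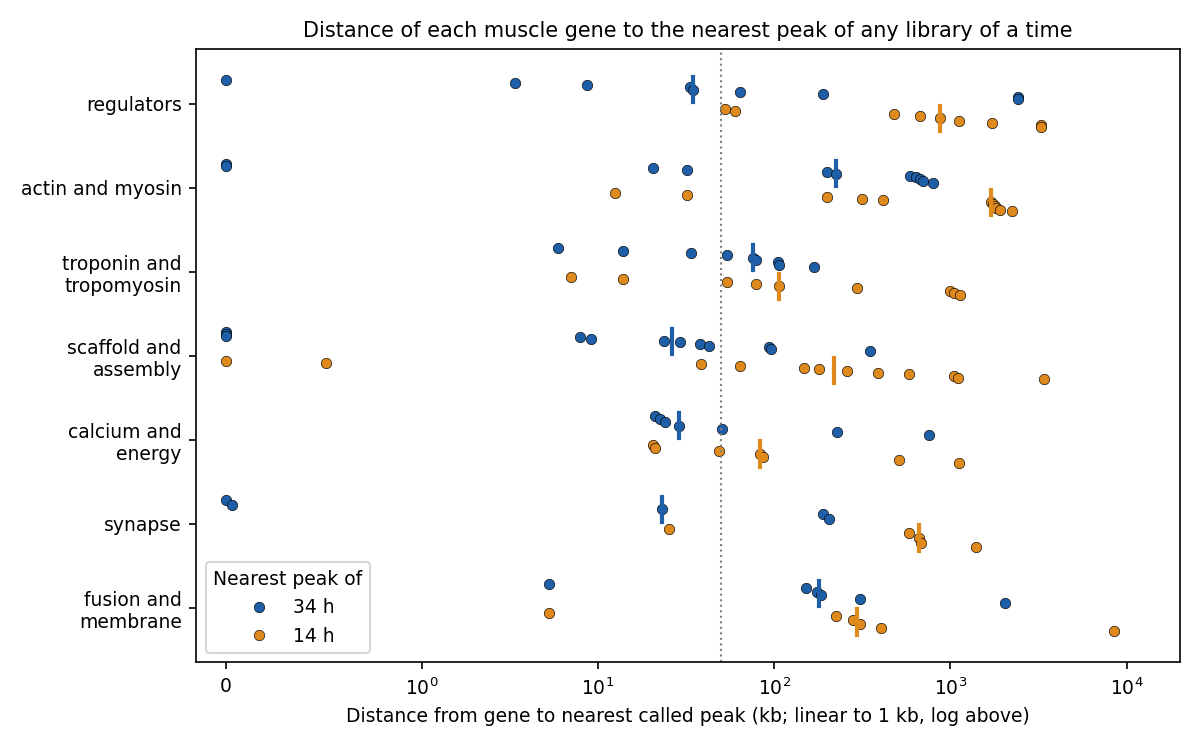
Distance in kb from each muscle gene to the nearest called peak of any library of a time, by role of the gene, 34 h in blue above 14 h in orange, with the median of each group as a vertical line and 50 kb as a dotted line. The axis is linear to 1 kb and logarithmic above, and Myf5 and Myf6 are the regulator points farthest from a peak, at 2417 kb and 2409 kb for 34 h.

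Of 60 merged regions inside or within 50 kb of the muscle genes, 9 lay inside and 51 outside. Of those outside, 30 (58.8%) had a summit within 1 kb of the boundary of another protein-coding gene, and 54.8% of all 5567 regions had a summit within 1 kb of any gene boundary. Of 25 regions seen in at least 2 libraries of a time, 4 were inside, 13 of the 21 outside (61.9%) were at another gene, beside 65.2% of all such regions, and 6 were nearer to the muscle gene than to any other boundary. All 4 regions present in all 6 libraries were nearer to another gene, and 3 of 4 (75%) were within 1 kb of it, beside 85.5% of all 428 such regions. Regions of 1 library made up 35 of the 60, and 27 of those 35 came from 34 h replicate 2, which gave 84.5% of such regions over all genes.

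Genes with many neighbours made up much of the 50 kb counts. Both sets had a median of 4 boundaries of other genes within 50 kb. Of the 13 muscle genes with more than 8, 8 had a peak within 50 kb in at least 2 libraries of 34 h and 6 at 14 h, where 36.3% and 20.4% of all genes in that class did so. In the classes of 0, 1 to 2, 3 to 4 and 5 to 8 boundaries, 1 of 4, 3 of 16, 2 of 11 and 3 of 15 muscle genes did so at 34 h, beside 7.11%, 15.6%, 22.3% and 25.6% of all genes. At 14 h the counts in these classes were 0 of 4, 1 of 16, 1 of 11 and 1 of 15, beside 2.01%, 6.48%, 11.6% and 14.3%. The muscle genes' share was thus much the highest in the densest class and showed no order over the other classes. Weighting the all-gene share to the neighbour classes of the muscle genes left an excess of 5.65 percentage points at 34 h and 1.61 at 14 h.

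A further 134 muscle genes of 4 other lists, chosen like the first with earlier results of these data known, were counted in the same way. Within 1 kb, in at least 2 libraries of a time, 9 of 134 had a peak at 34 h (6.72%, beside 7.36% of all genes) and 2 of 134 at 14 h (1.49%, beside 3.87%). Inside the gene the counts were 13 at 34 h (9.70%, beside 7.40%) and 3 at 14 h (2.24%, beside 3.42%). Within 50 kb they were 37 at 34 h (27.6%, beside 22.5%) and 12 at 14 h (8.96%, beside 11.7%). Inside the gene at 34 h these genes lay above all genes and within 50 kb at 14 h below them, in each case the other way round from the 59 genes. By list, 1 of 42 sarcomere genes, 2 of 24 calcium and metabolic genes, 2 of 27 membrane, synapse and fusion genes and 4 of 41 regulators had a peak within 1 kb at 34 h (2.38%, 8.33%, 7.41% and 9.76%, beside 7.36% of all genes). At 14 h these counts were 0, 1, 0 and 1 (0%, 4.17%, 0% and 2.44%, beside 3.87%). With so few genes a list, these counts are no result about a list.

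Among the other regulators with a peak within 1 kb in at least 2 libraries of a time were Id1, Id2 and Tcf3. Id3 and Id4, also on that list, were not among them. Id2, a protein that holds E proteins off DNA, had folds of 6.71, 8.45 and 7.36 at 34 h and no peak at 14 h. Tcf3, the E-protein partner of MyoD, had 6.39, 9.71 and 6.36 at 34 h and 4.99 in replicate 2 of 14 h. Id1 had 4.31 in replicate 2 of 34 h and 6.42 and 6.44 in replicates 2 and 3 of 14 h. Summits lay 117, 124 and 32 bp from the boundaries of Id2, Tcf3 and Id1.

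Rb1, the retinoblastoma gene, had folds of 6.87 and 5.80 in replicates 1 and 2 of 34 h only. Snai1, a zinc finger repressor, had 5.85 and 5.64 in replicates 2 and 3 of 34 h only. Cavin4, a caveola protein gene, had 8.67 and 6.88 in replicates 1 and 2 of 34 h only, with the boundary of Tmeff1 286 bp away. These summits were 28 to 159 bp from the boundary of the named gene.

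Pfkm, the muscle phosphofructokinase gene, had peaks in all 6 libraries, with folds of 6.90, 6.13 and 6.03 at 34 h and 6.46, 5.83 and 5.53 at 14 h. The times overlapped, and the boundary of Senp1 was nearer, at 307 bp against 672 bp for Pfkm. Srl, the sarcalumenin gene, had 4.98 and 4.75 in replicates 1 and 2 of 34 h and 4.99 in replicate 2 of 14 h. The adhesion genes Cdh2 and Ncam1 had 6.01 and 5.88 in replicates 1 and 3 of 34 h for Cdh2, and 6.07 and 5.74 in replicates 1 and 2 of 34 h for the Ncam1 region 375 bp from its boundary. Cdh2 also had a fold of 5.37 in replicate 1 of 14 h.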

How the data were processed

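ChIP-seq peak lists of 6 IP libraries were analysed, 3 at 34 h and 3 at 14 h, and the 2 inputs entered through the authors' calls alone. Per the submitters' processing notes, Subread and MACS2 were used with mm10; which versions and which threshold is not given in the sources used here. Per the deposited lists' names, each IP library was called on its own with the matching input, without pooling. The deposited lists give a fold (a linear ratio of signal to local background), the −log10 of a p-value and of a q-value, an integer score and the offset of the summit. The fold is used here to describe peaks, within lists and side by side across libraries and times, without a test.

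Fragments at a summit were solved from the deposited fold and −log10 p-value of each peak, to within 0.001, for 100% of peaks. Gene positions came from RefSeq on GRCm38.p6. A peak counted where it overlapped a gene or window by at least 1 bp, and overlapping peaks were merged into regions. Distances of regions are from the summit, and distances to the nearest peak are from the peak edge. A start and an end were both taken as boundaries. Exact binomial intervals are at 95%. Counting was checked on simulated data.

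The genes and lists were chosen with earlier results of these data known. Named genes are those with a peak of their own in any library, those with a peak within 50 kb in at least 2 libraries of a time, every regulator, and other muscle genes with a peak within 1 kb in at least 2 libraries of a time. Alternatives changed the significance limit, list length, window, gene set and libraries required. Python 3.11.15, pandas 2.3.3, numpy 2.4.6, scipy 1.17.1 and matplotlib 3.10.9 were used.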

Additional observations from a re-analysis of the deposited data

How the results depend on the processing

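Of the values recomputed under alternatives, 84 stayed within the spread or 1.5 times the reported count, and 38 moved further. For genes called within 1 kb at 34 h (2 reported), the count was 0 with lists limited to 765 peaks each, 0 without genes that have a close neighbour, 0 in a 500 bp window, 0 with all 3 libraries required, 4 with any library and 0 on promoter windows; leaving out a library gave 0 to 2. At 14 h (1 reported) it was 0 without close neighbours, in a 500 bp window, with all 3 libraries and on promoter windows; leaving out a library gave 0 to 1. Inside genes at 34 h (3 reported), it was 0 with equal lists, 1 without close neighbours, 0 with all 3 libraries and 7 with any; leaving out a library gave 0 to 3. Within 50 kb at 34 h (17 reported), it was 6 with equal lists, 11 without close neighbours, 7 within 20 kb, 9 with all 3 libraries and 29 with any; leaving out a library gave 9, without replicate 2, to 16. At 14 h (9 reported), it was 4 without close neighbours and 5 with all 3 libraries, and leaving out a library gave 5, without replicate 2, to 7. With a library left out, a peak was needed in both of the others. Counts from leaving out a library could therefore only stay or fall.

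The differences from all genes, in percentage points, moved as follows. Within 1 kb at 34 h (−5.18) it was −3.15 with equal lists. Inside genes at 34 h (−3.50) it was −2.32 at a −log10 q of at least 5 and −0.392 by summit alone. Within 50 kb at 34 h (6.56) it was 4.10 at that limit, 1.17 with equal lists, −1.89 within 20 kb and 3.46 within 100 kb. Within 50 kb at 14 h (2.17) it was −0.865 without close neighbours. The excess within 50 kb changed sign with the 20 kb window at 34 h but not at 14 h (1.01), and without close neighbours at 14 h but not at 34 h (5.42). The cause was not tested. Promoter windows and neighbour weights were chosen after seeing the data. No paired analysis was possible because the labels do not say that equal replicate numbers pair libraries, and no test between times was made. Summits stood on few fragments, which limits the precision of each fold.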
